A study of Mus musculus with 7 samples.

Results

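The receptors through which ovarian and lactogenic hormones reach the mammary gland were examined in wild-type mice and in PRA transgenics. The 9 genes were Pgr, Esr1, Esr2, Nr3c1 and Nr3c2, which encode nuclear steroid receptors, Prlr and Ghr, which encode cytokine receptors, and Pgrmc1 and Pgrmc2, which encode membrane components. They were chosen by name, as the non-control probes whose gene name in the scanner files is one of these 9. They have 27 of the 56605 probes on the array, and 22 of the 34284 probes that could be tested.

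Glands came from 3 wild-type and 4 PRA transgenic FVB mice, all nulliparous females in diestrus and 20 to 25 weeks old, with 1 animal and 1 abdominal gland per array and the lymph nodes cut out. The PRA transgenics are bigenic. GAL-4 driven by a murine CMV promoter, which is not restricted to the mammary gland, acts on UAS sites placed before an added copy of the PR-A form of the receptor. Neither genotype lost the endogenous Pgr gene. Gland RNA carried Cy5. The Cy3 channel held Universal Mouse Reference RNA, pooled from mouse cell lines and identical on all arrays. The log2 ratio is the processed Cy5 over the processed Cy3 signal, and "Cy5 alone" is the log2 processed Cy5 signal minus the 75th percentile of the array.

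Progesterone and estrogen act on the ductal epithelium through receptors that bind DNA as dimers. In the mammary epithelium estrogen receptor alpha, the product of Esr1, induces Pgr, and Pgr and Esr1 are largely found in the same luminal cells. Prolactin and growth hormone bind single-pass receptors that signal through JAK2 and STAT5, and prolactin receptor is itself induced by progesterone in this tissue. One Pgr gene gives both receptor forms: PRA lacks an amino-terminal stretch that PRB has, and both carry the same DNA-binding and hormone-binding domains.

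Probes in a coding part shared by receptor forms are shown for 4 of the genes, as 60-base sequences that stand on the array (coordinates on mm9, as the files give them). The Pgr probe A_55_P2930103 (chr9:8903618-8903677, plus strand) lies where the first zinc finger of the DNA-binding domain is encoded, which PRA and PRB share, and capitals mark 2 cysteine codons of that finger. The Esr1 probe A_55_P2030883 (chr10:5489352-5489411, minus strand) lies in the part that encodes the hormone-binding domain. The Prlr probe A_52_P458279 (chr15:10255629-10255688, plus strand) covers part of the membrane-spanning segment. The Ghr probe A_52_P680941 reads part of the hormone-binding outer domain, and its ends lie 7453 bases apart on the genome (chr15:3283509-3290961, minus strand), so that it joins sequence from separate exons.
Pgr A_55_P2930103: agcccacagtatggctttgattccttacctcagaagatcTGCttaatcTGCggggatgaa
Esr1 A_55_P2030883: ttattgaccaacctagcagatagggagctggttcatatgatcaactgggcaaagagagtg
Prlr A_52_P458279: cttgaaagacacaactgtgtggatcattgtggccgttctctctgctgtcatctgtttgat
Ghr A_52_P680941: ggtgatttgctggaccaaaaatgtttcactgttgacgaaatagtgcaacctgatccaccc

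A probe was tested where all arrays of 1 or both genotypes had Cy5 well above background. Gland markers were present on every array. Of the genes listed, 9 of 10 luminal, 7 of 7 basal and 8 of 8 white adipocyte genes were well above background on all 7. The other luminal gene, Prom1, had no probe that could be tested. Cy5 was well above background for 62.7% to 66.2% of probes in wild-type and 56.6% to 60.2% in PRA transgenic arrays, and Cy3 for 53.2% to 54.0% and 47.2% to 50.6%. All 7 arrays lay on 1 slide, wild-type in row 1 and PRA transgenic in row 2, so the effect of slide row cannot be told apart from that of genotype. The mean Cy5 of 5 T cell genes was 2.13 in wild-type replicate 1 and -0.40 to 0.12 on the other arrays, and that of 3 B cell genes was 1.61 there and -2.56 to -1.63 elsewhere. Skeletal muscle genes stood at 0.64, 2.33 and 1.76 in wild-type replicates 1 and 3 and PRA transgenic replicate 4, and at -2.40 to -2.19 on the remaining arrays. In bulk tissue, fewer cells of a type and less RNA per cell cannot be told apart.

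No receptor gene was shown by its brightest probe to differ between the genotypes beyond the spread between animals. By that probe, 0 of the 9 genes passed an adjusted p of 0.05 (limma, Benjamini-Hochberg over all probes tested), beside 0.00445% of all 22482 genes. At an unadjusted p under 0.05 the count was also 0 of 9, beside 7.95% of all genes, and the methods' t-test gave 0 as well. The log2 ratio was higher in PRA transgenics for 4 genes and lower for 5, with a median log2 fold change of -0.01 over the 9 and 0.01 over all genes. In Cy5 alone 0 of 9 genes passed the adjusted threshold (0.0089% of all genes) and 0 of 9 passed the unadjusted one (7.59%), with 6 higher and 3 lower. The genotypes overlapped for all 9 genes on both scales, while they did not for 9.11% of all genes in the ratio and 8.61% in Cy5.

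Of the 22 probes tested, 0 passed the adjusted threshold in the ratio (0.0117% of all probes), and the lowest adjusted p was 0.534 (limma). In Cy5 alone 0 passed it too (0.0146% of all probes), with a lowest adjusted p of 0.466. An unadjusted p under 0.05 was reached by 1 probe in the ratio (9.02% of all probes) and 3 in Cy5 alone (8.73%). These were one Esr1 probe and a pair of Nr3c2 probes. The genotypes did not overlap for 1 probe in the ratio (9.94% of all probes) and 2 in Cy5 alone (9.66%), all of Nr3c2. Counts this small over 22 probes do not set the receptors apart from all probes.

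**Figure D1:**
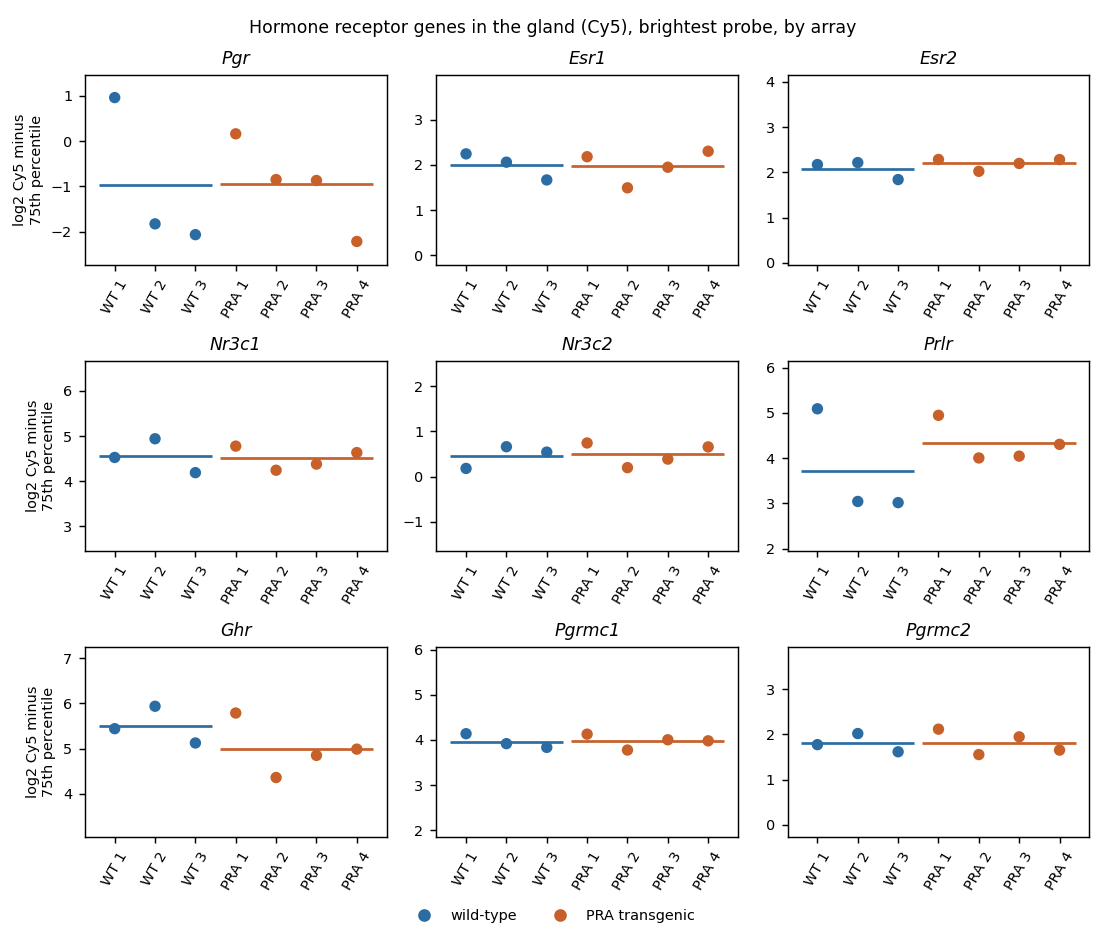
Log2 Cy5 minus the 75th percentile of the array (vertical axis) on each of the 7 arrays (horizontal axis) for the brightest probe of each receptor gene, with wild-type in blue, PRA transgenic in orange and lines at the genotype means; every panel spans the same number of log2 units. Pgr and Prlr spread over 9.07-fold and 4.21-fold between arrays, Pgrmc1 over 1.28-fold, and the genotypes overlap in every panel.

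Pgr encodes the progesterone receptor. Its brightest probe (A_55_P2095663, chr9:8968492-8968551, plus strand) had log2 ratios of 7.05, 4.30 and 4.04 in wild-type replicates 1 to 3. In PRA transgenic replicates 1 to 4 they were 5.38, 4.72, 4.49 and 3.32. The highest and the lowest arrays belonged to different genotypes, and the PRA transgenic arrays lay within or below the wild-type range. PRA transgenics differed from wild-type by -0.65 log2 units (standard error 0.80, 95% confidence interval -2.53 to 1.24, adjusted p = 0.858, limma).

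In Cy5 alone the same probe gave 0.96, -1.83 and -2.07 in wild-type and 0.16, -0.85, -0.87 and -2.22 in PRA transgenic arrays. Wild-type replicate 1 and PRA transgenic replicate 1 stood above the rest, and wild-type replicates 2 and 3 lay with PRA transgenic replicate 4. Here the log2 fold change was 0.03 (95% confidence interval -1.90 to 1.96, adjusted p = 0.995, limma). The interval leaves room for a change of nearly 2 log2 units either way. With each array left out in turn the Cy5 value ran from -0.51 without wild-type replicate 3 to 1.00 without wild-type replicate 1, with -0.39 without wild-type replicate 2, -0.33 without PRA transgenic replicate 1 and 0.46 without PRA transgenic replicate 4. In the ratio the range was -1.19 to 0.31, from the same wild-type arrays. Within genotypes the pooled SD was 1.31 in Cy5, at percentile 98.8 of all probes tested.

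The other plus-strand probes followed the brightest. A_55_P1985925 (chr9:8946947-8947006) gave Cy5 values of -1.13, -4.21 and -4.09 in wild-type and -2.39, -2.63, -2.85 and -4.36 in PRA transgenics, and its r with the brightest probe was 0.977 over the 7 arrays. A_55_P2930103, the zinc finger probe printed above, gave -2.11, -5.70 and -4.41 in wild-type and -3.24, -3.45, -3.87 and -4.95 in PRA transgenics. It was well above background on 2 of 3 wild-type and 2 of 4 PRA transgenic arrays and was not tested. The 3 wild-type arrays averaged -4.07 ± 1.82 (SD, n = 3) and the 4 PRA transgenic arrays -3.88 ± 0.76 (SD, n = 4), with wild-type replicate 1 above all 4 transgenic arrays. Since PRA holds this stretch, the probe matches sequence that the added PR-A form would share if the construct is of mouse sequence, which the sources used here do not settle. No PRA transgenic array lay above the wild-type range at any of the 3 plus-strand probes, in either scale. Whether the tested plus-strand probes match sequence of the added PR-A form was not determined. These values therefore cannot show whether the added form was expressed.

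The fourth Pgr probe, A_66_P104775 (chr9:8898921-8898980), lies on the minus strand, opposite to the others, and was not tested. It was well above background in Cy5 on 1 wild-type and 1 PRA transgenic array. Its Cy5 value was highest in PRA transgenic replicate 1, at -2.41 against -6.27 to -4.14 on the other arrays, and its Cy3 value was highest there too, at -1.96. It therefore carries a different pattern from the plus-strand probes.

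The reference touches the Pgr ratio. Cy3 was not well above background at the brightest Pgr probe on any array and was a surrogate value on all 7, a stand-in that Feature Extraction writes for dim signals. These Cy3 values were -6.08, -6.12 and -6.09 on wild-type and -5.20, -5.56, -5.35 and -5.52 on PRA transgenic arrays. The genotypes did not overlap in a channel that holds the same RNA throughout, with a log2 difference of 0.69 (standard error 0.09, adjusted p = 0.0684, limma on Cy3). Over all 373 tested probes with a surrogate Cy3 on every array, the median log2 fold change was -0.71 in the ratio, -0.11 in Cy5 and 0.62 in Cy3, and 90.9% of them were lower in the ratio. Over the 25192 tested probes whose Cy3 was well above background on every array the medians were 0.02, 0.01 and -0.00. The Pgr ratio fold change is thus close to a Cy5 difference near 0 less a Cy3 difference of the size that such probes share.

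**Figure D2:**
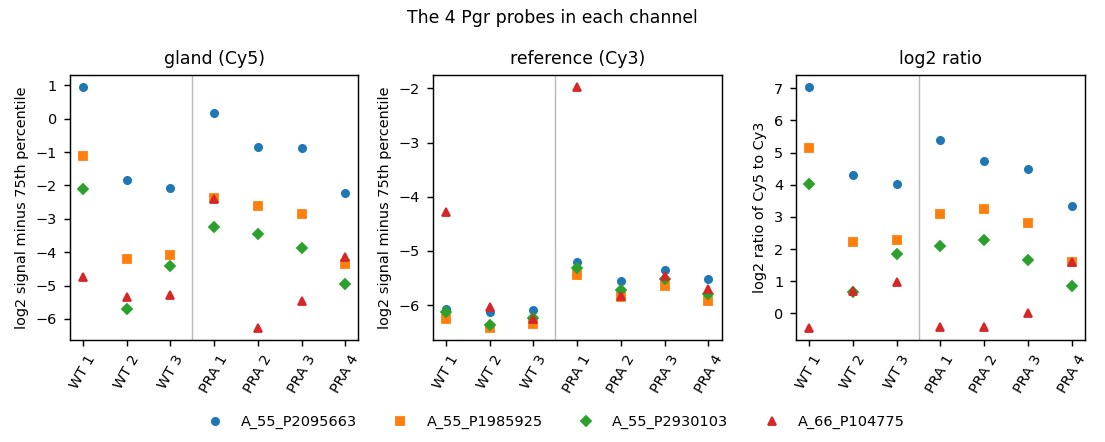
The 4 Pgr probes (marker shapes) on the 7 arrays in Cy5, in Cy3 (both log2 signal minus the 75th percentile of the array) and as log2 ratio, with a line between wild-type (WT) and PRA transgenic (PRA) arrays. The 3 plus-strand probes move together in Cy5 with wild-type replicate 1 highest, while their Cy3 values sit between -6.42 and -6.08 on wild-type and between -5.92 and -5.20 on PRA transgenic arrays.

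Esr1 encodes estrogen receptor alpha and has 7 probes, 5 of them tested. The brightest (A_65_P17231, chr10:5341167-5341226, minus strand) had log2 ratios of 3.55, 3.00 and 2.82 in wild-type and 3.08, 2.46, 2.95 and 2.63 in PRA transgenics. The genotypes overlapped, with PRA transgenic replicates 2 and 4 below all wild-type arrays. PRA transgenics stood lower by a log2 difference of -0.34 (adjusted p = 0.711, limma, standard error 0.23). In Cy5 alone the values were 2.24, 2.06 and 1.67 in wild-type and 2.18, 1.49, 1.95 and 2.30 in PRA transgenics, a difference of -0.01 with a 95% confidence interval from -0.55 to 0.53. The reference was well above background on all 7 arrays at this probe and had a log2 difference of 0.34 (adjusted p = 0.601, limma).

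Another Esr1 probe (A_52_P237077, chr10:5343056-5343115) had Cy5 values of 0.93, 1.01 and 0.56 in wild-type. In PRA transgenics they were 0.63, -0.20, 0.23 and 0.47. PRA transgenic replicate 1 lay within the wild-type range and the other transgenic arrays below it. Its log2 fold change was -0.55 in Cy5 (unadjusted p = 0.0406, adjusted p = 0.556) and -0.68 in the ratio (unadjusted p = 0.0617, adjusted p = 0.581, limma). The 3 remaining tested probes, the hormone-binding probe printed above among them, had log2 fold changes between -0.51 and 0.18 in the ratio and between -0.23 and 0.15 in Cy5. Neither A_55_P2899365 nor A_66_P138072 could be tested, each being well above background in Cy5 on 2 wild-type arrays and on 0 and 1 PRA transgenic arrays.

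Esr2 encodes estrogen receptor beta, and its 2 probes did not give one picture. A_55_P2008197 (chr12:77221426-77221485, minus strand) was well above background in both channels on all 7 arrays. Its log2 ratios were -0.11, -0.13 and -0.50 in wild-type and -0.08, -0.27, -0.12 and -0.05 in PRA transgenics, a log2 fold change of 0.12 (adjusted p = 0.854, limma). A_52_P156314 (chr12:77222311-77222370), listed for the same transcript and nearby, was not well above background in either channel on any array and held surrogate values throughout. Its Cy5 values ran from -7.19 to -6.93 in wild-type and from -6.55 to -6.20 in PRA transgenics. Which of the probes reads Esr2 in this tissue was not tested.

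Nr3c1 encodes the glucocorticoid receptor, which acts with prolactin in milk gene expression. Its brightest probe (A_55_P1967885, chr18:39571641-39571700, minus strand) had log2 ratios of 0.71, 1.17 and 0.28 in wild-type and 0.97, 0.40, 0.52 and 0.85 in PRA transgenics. The genotypes overlapped fully and the log2 fold change was -0.04 (95% confidence interval -0.61 to 0.54, adjusted p = 0.985, limma). The second probe, A_55_P2728068, gave -0.19 (adjusted p = 0.838, limma), and the pair followed each other over the arrays with r = 0.917 in Cy5.

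Nr3c2 encodes the mineralocorticoid receptor, which binds progesterone as well as aldosterone and corticosterone. By its brightest probe (A_66_P110473, chr8:79768704-79768763, plus strand) the log2 ratios were 2.52, 2.77 and 2.75 in wild-type and 3.00, 2.53, 2.76 and 3.01 in PRA transgenics. The genotypes overlapped and the log2 fold change was 0.15 (adjusted p = 0.828, limma).

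The other Nr3c2 probes were dimmer, and in Cy5 their genotypes did not overlap. A_66_P132841 (chr8:79766784-79766843), gave Cy5 values of -2.86, -2.28 and -2.58 in wild-type and -1.94, -2.19, -1.95 and -2.15 in PRA transgenics. The lowest PRA transgenic value exceeded the highest wild-type value, also in the ratio, where the values were 1.56, 2.79 and 2.97 against 3.44, 3.00, 3.18 and 3.61. PRA transgenics stood higher by 0.51 log2 units in Cy5 (unadjusted p = 0.0155, adjusted p = 0.466) and 0.87 in the ratio (unadjusted p = 0.0417, adjusted p = 0.534, limma).

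A_51_P377914 (chr8:79432389-79432448) gave 0.41 in Cy5 (unadjusted p = 0.0350, adjusted p = 0.538) and -0.24 in the ratio (adjusted p = 0.652, limma). Its highest wild-type and lowest PRA transgenic Cy5 values both round to -4.05, and in the ratio the genotypes overlapped. Its Cy3 was a surrogate on all 7 arrays and differed by 0.66, so the sign of its ratio is not that of its Cy5. The reference was well above background on 0 arrays at either of these dim probes and on all 7 at the brightest, whose Cy5 log2 fold change was 0.04. The probes of Nr3c2 thus disagree, and no call was made for the gene.

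Prlr encodes the prolactin receptor, and by the brightest probes it varied most between arrays after Pgr in Cy5. Its brightest probe (A_66_P139387, chr15:10259066-10259125, plus strand) had Cy5 values of 5.09, 3.04 and 3.01 in wild-type and 4.94, 4.00, 4.04 and 4.30 in PRA transgenics. Wild-type replicates 2 and 3 lay below all other arrays, and wild-type replicate 1 above them. The log2 fold change was 0.61 in Cy5 (95% confidence interval -0.62 to 1.84, adjusted p = 0.787) and 0.25 in the ratio (adjusted p = 0.883, limma). Without wild-type replicate 1 the Cy5 value was 1.30 (unadjusted p = 0.00330, adjusted p = 0.447, limma), with all 4 PRA transgenic arrays above the remaining wild-type arrays. It was 0.27 without wild-type replicate 2 and 0.26 without wild-type replicate 3 (unadjusted p = 0.655 and 0.665, limma), and 0.40 without PRA transgenic replicate 1. The Cy3 reference was well above background here on 1 array, wild-type replicate 1.

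The transmembrane probe of Prlr, A_52_P458279, gave Cy5 values of 1.66, -0.02 and -0.19 in wild-type and 1.35, 0.51, 0.61 and 0.87 in PRA transgenics, which ranks the arrays in the same order as the brightest probe. Its r with the brightest was 0.989 in Cy5, and its log2 fold change was 0.66 in the ratio (unadjusted p = 0.0875, adjusted p = 0.612) and 0.35 in Cy5 (adjusted p = 0.873, limma). The third probe, A_55_P2503206 (chr15:10278249-10278308), had r = 0.889 with the brightest in Cy5 and log2 fold changes of -0.53 in the ratio and 0.08 in Cy5. Its Cy3 was a surrogate on 4 arrays.

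Ghr encodes the growth hormone receptor, which in the gland is known from stroma and fat as well as epithelium. Its brightest probe (A_51_P499854, chr15:3268107-3268166, minus strand) had Cy5 values of 5.44, 5.93 and 5.12 in wild-type and 5.78, 4.36, 4.85 and 4.99 in PRA transgenics. Wild-type replicate 2 and PRA transgenic replicate 1 were highest and PRA transgenic replicate 2 lowest. The log2 fold change was -0.50 in Cy5 (adjusted p = 0.724) and -0.45 in the ratio (adjusted p = 0.784, limma). Without PRA transgenic replicate 1 it was -0.77 in Cy5 (unadjusted p = 0.0252, adjusted p = 0.516, limma), and without wild-type replicate 2 or PRA transgenic replicate 2 it was -0.29 in both cases. In the ratio, leaving out the same arrays gave values from -0.73 to -0.21.

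The other 3 Ghr probes gave -0.05, -0.07 and 0.39 in the ratio, with adjusted p from 0.848 to 0.976 (limma), so the sign depends on the probe. The white adipocyte genes, as a mean of 8, were also highest in PRA transgenic replicate 1 and wild-type replicate 2, at 6.92 and 6.69, and lowest in PRA transgenic replicate 2 and wild-type replicate 3, at 5.92 and 6.03. Their part in the Ghr values was not tested.

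Pgrmc1 and Pgrmc2 encode membrane-bound heme proteins of the endoplasmic reticulum that have been linked to progesterone responses. They were the steadiest of the receptor genes in the ratio together with Esr2. Pgrmc1 (A_51_P144581, chrX:34145797-34145856, plus strand) had log2 ratios of 1.12, 0.81 and 0.72 in wild-type and 1.11, 0.70, 0.95 and 0.89 in PRA transgenics. For Pgrmc1 the log2 fold change was 0.03, with a 95% confidence interval from -0.33 to 0.39 (adjusted p = 0.976, limma). Pgrmc2 (A_51_P413916, chr3:40870691-40870750, minus strand) gave 1.05, 1.14 and 0.83 against 1.15, 0.75, 1.17 and 0.91. Its log2 fold change was -0.01, with a 95% confidence interval from -0.37 to 0.35 (adjusted p = 0.990, limma). These intervals hold no change of 0.40 log2 units or more in either direction, where that of Pgr spans more than 3 units.

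**Figure D3:**
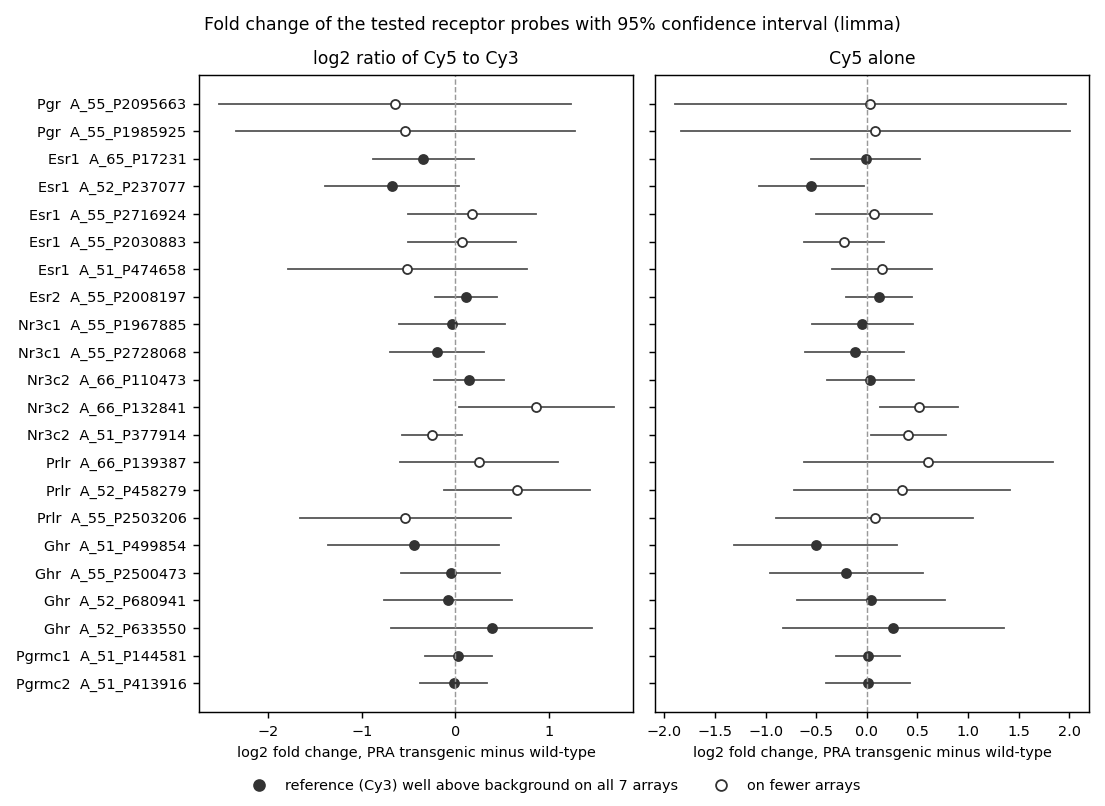
Log2 fold change of PRA transgenic minus wild-type (points) with the 95% confidence interval of limma (lines) for the 22 tested receptor probes, in the log2 ratio (left) and in Cy5 alone (right). Filled points have a reference signal well above background on all 7 arrays and open points on fewer; the 2 Pgr probes lie near -0.6 in the ratio and near 0 in Cy5, and intervals that leave out 0 belong to Nr3c2 and to Esr1.

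Whether Pgr and Esr1 vary together over the arrays depended on the scale. In the log2 ratio their brightest probes had r = 0.802 (two-sided exact permutation test over all 5040 pairings, p = 0.0387, Benjamini-Hochberg adjusted over the 2 scales 0.0774) and rho = 0.607 (exact permutation test, p = 0.167). Without wild-type replicate 1 and PRA transgenic replicate 4, the arrays farthest from the median of Pgr, r was 0.184. Leaving out the extremes also narrows the range of Pgr. Without wild-type replicate 1 alone it was 0.406 (exact permutation test, p = 0.426).

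In Cy5 alone r was 0.251 (exact permutation test, p = 0.586, adjusted 0.586) and rho was 0 (exact permutation test, p = 1). PRA transgenic replicate 4 had the highest Esr1 Cy5 value and the lowest Pgr value. Without the 2 farthest arrays r was 0.369. As deviations from the genotype means the ratio gave r = 0.797 and Cy5 gave 0.252, so the gap between the scales was as wide within genotypes. The Cy3 reference at the brightest Esr1 probe also moved over the arrays. It was lowest, at -1.30, in wild-type replicate 1, the array highest for Pgr. In PRA transgenic replicate 4, the array lowest for Pgr, it was highest, at -0.31, with -1.14 to -0.87 elsewhere. There the Esr1 ratio was 2.63, the second lowest, and the Esr1 Cy5 value 2.30. Cy3 at the brightest Pgr probe was a surrogate throughout. The part of the reference in the ratio r was not tested. One other Esr1 probe, A_55_P2716924, which lies elsewhere in the gene, had r = 0.917 with Pgr in Cy5, and the 4 remaining tested Esr1 probes had r between 0.135 and 0.443. This probe was noticed after its values were seen and has no test.

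Among the other receptors Prlr was closest to Pgr in Cy5, a pair that was likewise noticed among the 36 pairs after their values were seen and is given without a test. Its r was 0.801 and its rho 0.607, and without wild-type replicate 1 and PRA transgenic replicate 4 r was 0.996. PRA transgenic replicate 4 departs from the other arrays, with the lowest Pgr and the third highest Prlr. Over both tested Pgr probes and all 3 Prlr probes, r in Cy5 ran from 0.707 to 0.819. In the ratio the brightest probes had r = 0.525. The arrays share one slide, and wild-type replicate 1, highest for both genes, is also the array with the high T cell and B cell genes. The luminal genes ranked the arrays otherwise. Their mean Cy5 was 3.35 in wild-type replicate 1 and highest in wild-type replicate 3, at 4.08. It was lowest, at 2.69, in PRA transgenic replicate 1, the array next highest for both genes. The basal mean was 2.96 in wild-type replicate 1 and highest in wild-type replicate 3, at 3.42. The part of cell makeup in the relation of Pgr and Prlr was not tested.

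**Figure D4:**
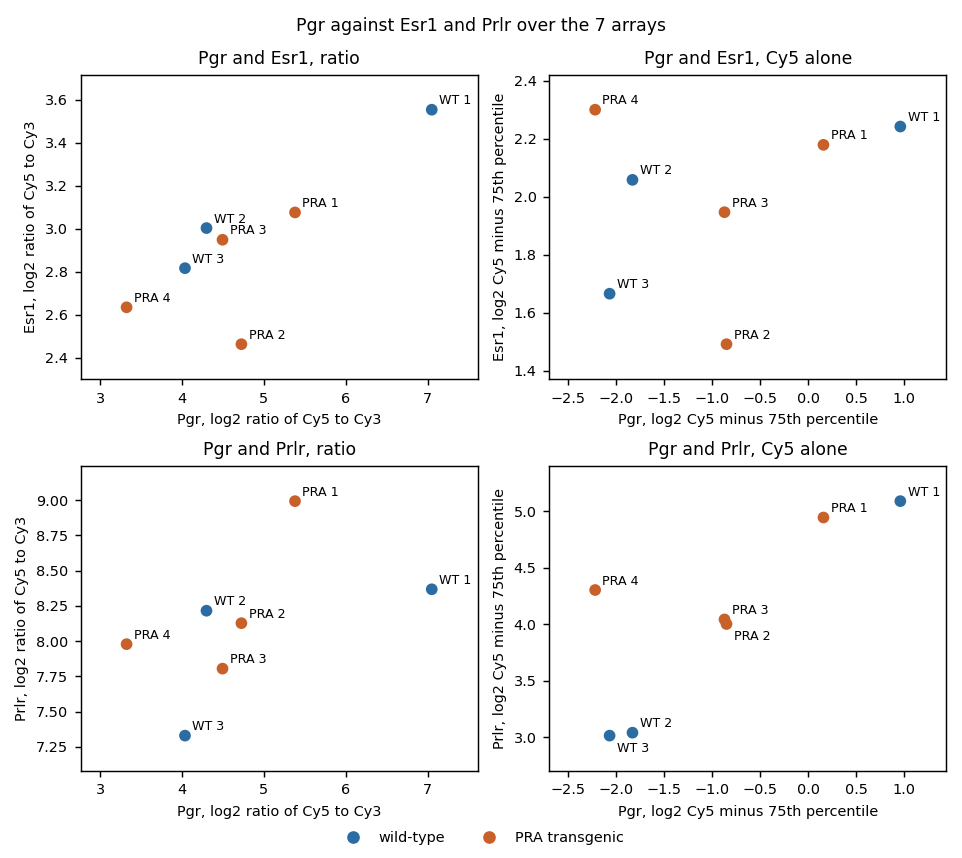
Pgr (horizontal axis) against Esr1 (top) and Prlr (bottom) over the 7 arrays, in the log2 ratio (left) and in Cy5 alone (right), with wild-type in blue and PRA transgenic in orange. For Esr1 the points line up in the ratio (r = 0.802), mostly through wild-type replicate 1, and scatter in Cy5 (r = 0.251), while for Prlr all arrays but PRA transgenic replicate 4 line up in Cy5.

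Over all 36 pairs of receptors, r in Cy5 ran from -0.47 (Pgr with Nr3c2) to 0.84 (Esr1 with Pgrmc1). Esr1 with Esr2 had r = 0.813 and Nr3c1 with Ghr 0.812. These values come from 7 arrays of 1 slide and are a description only. Among 20027 genes well above background in Cy5 on all arrays, Prlr ranked at 350 by its r with Pgr, Pgrmc1 at 1124 and Esr1 at 6543. By its r with Esr1, Pgrmc1 ranked at 410, Esr2 at 627 and Pgr at 7870.

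**Figure D5:**
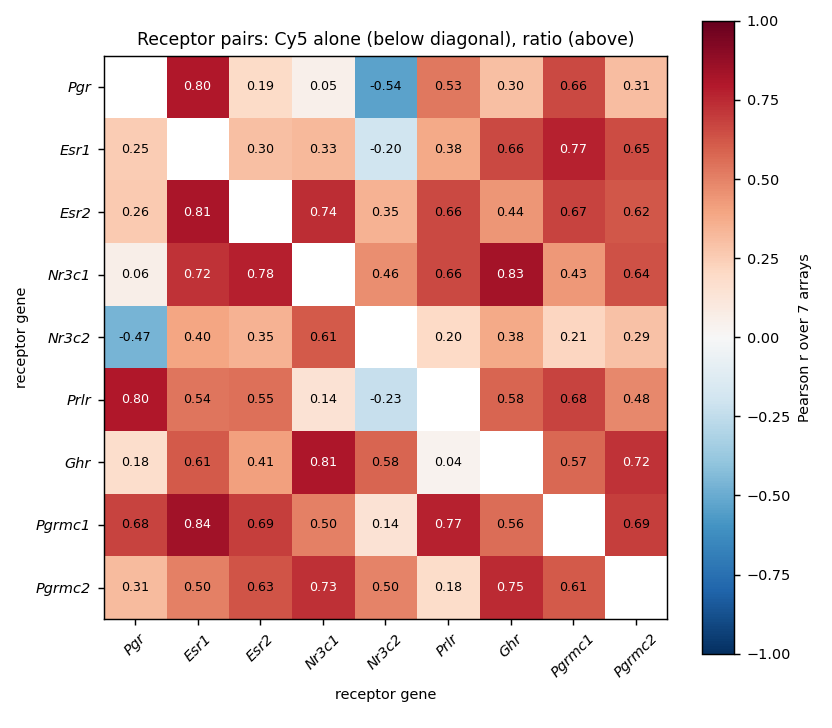
Pearson r over the 7 arrays for each pair of receptor genes by their brightest probes, in Cy5 alone below the diagonal and in the log2 ratio above it, from -1 (blue) to 1 (red). Pgr with Esr1 is 0.25 below and 0.80 above the diagonal, and Pgr with Prlr is 0.80 below and 0.53 above.

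The genes most like Pgr in Cy5 were Gimap4, a GTPase of lymphocytes, with r = 0.991, a probe known only by a region of chromosome 12 (0.987), R3hdml (0.982), the chemokine Cxcl15 (0.975) and the cytochrome P450 gene Cyp3a57 (0.967). In all, 67 of the 20027 genes had r over 0.9 in Cy5. In the ratio, r with Pgr was -0.65 for the chromosome 12 probe, 0.54 for Gimap4, 0.66 for R3hdml, 0.95 for Cxcl15 and 0.93 for Cyp3a57. In Cy5 Gimap4 ran from 0.83 in PRA transgenic replicate 4 to 1.63 in wild-type replicate 1, a much narrower range than that of Pgr. Among those most like Esr1 were H2-M3, a non-classical MHC class I gene (0.984), a transcript named only by its Ensembl ID (0.976), Phf1, a Polycomb-associated gene (0.976), and Jpt2 (0.976), with 139 genes over 0.9. In the ratio, the r of these named genes with Esr1 ran from -0.22 for Jpt2 to 0.69 for H2-M3. The likenesses in Cy5 come from a search over many genes and 7 arrays, and no test was made of them.

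The receptors work with other proteins, and 68 genes in 6 lists of such partners were examined, of which 67 were tested. An adjusted p under 0.05 was reached by 0 of them (lowest 0.421, limma). An unadjusted p under 0.05 was reached by 3, or 4.48%, beside 7.95% of all genes, and the genotypes did not overlap for these 3 (9.11% of all genes). The log2 ratio was higher for 28 and lower for 39 of the 67, with a median log2 fold change of -0.03. The methods' t-test also gave 3 before adjustment and 0 after it.

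In prolactin and growth hormone signaling, 5 of 14 genes were higher and 9 lower, with a median of -0.10. Socs1, an inhibitor of cytokine receptor signaling, had log2 ratios from -0.999 to -0.530 in wild-type and from -1.54 to -1.05 in PRA transgenics. Its log2 fold change was -0.63 in the ratio and -0.73 in Cy5 (unadjusted p = 0.0107 and 0.00524, adjusted p = 0.421 and 0.389, limma). Stat3, a transcription factor downstream of cytokine receptors, ran from 0.39 to 0.55 in wild-type and from -0.05 to 0.28 in PRA transgenics, with a log2 fold change of -0.31 (unadjusted p = 0.0430, adjusted p = 0.536, limma). Neither passed the adjusted threshold.

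Of the 12 receptor chaperones, which hold steroid receptors ready for hormone, 6 were higher and 6 lower. Dnajb1, an HSP40 co-chaperone, ran from -0.53 to -0.33 in wild-type and from -0.19 to 0.25 in PRA transgenics, with a log2 fold change of 0.43 (unadjusted p = 0.0168, adjusted p = 0.461, limma). In the other lists no gene reached an unadjusted p under 0.05 in the ratio. In Cy5 alone 4 of the 67 partner genes did, Socs1, Stat3, Dnajb1 and Paqr6, beside 7.59% of all genes. The 6 tested genes of membrane progestin receptors and binding had 2 higher and 4 lower, the lowest p being that of Paqr7, a membrane progestin receptor, at -0.48 (unadjusted p = 0.0790, limma). Paqr6, another of these receptors, named after its values were seen, had a log2 fold change of -0.63 in Cy5 (unadjusted p = 0.00486, adjusted p = 0.385) and -0.09 in the ratio (adjusted p = 0.942, limma).

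The 13 other nuclear receptors had 5 higher and 8 lower, with Esrrg at -0.92 in the ratio and 0.01 in Cy5 (unadjusted p = 0.117 in the ratio, limma). Of 12 coactivators and corepressors 5 were higher and 7 lower, with Uba3 at -0.25 (unadjusted p = 0.0926, limma). Of 10 pioneer and luminal partner factors, 5 were higher and 5 lower. Greb1, an estrogen-induced cofactor of estrogen receptor alpha, had the lowest p of these, with a log2 fold change of -1.19 (standard error 0.60, unadjusted p = 0.0852, adjusted p = 0.611, limma). Its ratios ran from 0.04 to 2.14 in wild-type and from -1.15 to 0.29 in PRA transgenics, and so overlapped.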

How the data were processed

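Each of the 7 arrays (3 wild-type, 4 PRA transgenic) holds the gland RNA of 1 mouse in Cy5 and a common reference in Cy3. The deposited scanner files come from Agilent Feature Extraction 12.0 (version per the submitters' processing notes), whose processed intensity values, as deposited, are background-subtracted and dye-normalized, with surrogates where a spot is dim. A further table from the authors holds log2 values. When compared with the scanner files these proved to be log2 Cy5 over Cy3, centered per probe on the median array. Here log2 ratios and log2 Cy5 minus the 75th percentile of each array were computed, control and outlier spots were left out, and spots of a probe averaged. The filter was Cy5 well above background throughout 1 or both genotypes. Probes that passed were tested in R 4.3.3 with limma 3.58.1 (lmFit, eBayes), and p-values were adjusted over all of them by Benjamini-Hochberg. The brightest tested probe in Cy5 stood for a gene. Positions are on mm9 and names were updated through RefSeq of GRCm38.p6. The steps were tested on simulated data.

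The receptor genes and the partner and marker lists were chosen with earlier results of these data known. Named were all 9 receptor genes with each of their probes, partner genes with an unadjusted p under 0.05 (otherwise the lowest p of each list), and the 5 genes most like Pgr and Esr1, of which 1 is not reported here. Alternatives were normexp with offset 50 and loess, the series table, quantile normalization, Cy5 alone, no filter and a stricter filter, the methods' t-test, the replicate number as a block, the median over probes, and each array left out.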

Additional observations from a re-analysis of the deposited data

Results flagged for a closer look

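Among 74 sets of 4 PRA transgenic values (each receptor probe and each marker list, in the ratio and in Cy5), 6 had 1 array standing apart by Dixon's test, and chance gives about 3.7. At the Esr1 hormone-binding probe A_55_P2030883, PRA transgenic replicate 2 had a log2 ratio of 1.00 against 1.68 to 1.74 on the other transgenic arrays (gap over range 0.922). At the Ghr probe A_52_P633550 the same array had 0.82 against 1.77 to 1.88 in the ratio (0.897) and 1.84 against 2.82 to 2.94 in Cy5 (0.893). Skeletal muscle genes were high in PRA transgenic replicate 4, at 1.76 in Cy5 against -2.33 to -2.19 (0.967) and at 2.83 in the ratio against -0.48 to -0.23 (0.923). Fibroblast genes were high on that array in the ratio, at 2.76 against 2.20 to 2.27 (0.870). In wild-type replicates 1 to 3 the fibroblast values in the ratio were 2.79, 2.66 and 2.27. PRA transgenic replicate 4 was also the lowest array for the brightest Pgr probe, and wild-type replicate 1 the highest. A relation of these markers to Pgr was not tested.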

How the results depend on the processing

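Of the 9 receptor genes, 0 passed the adjusted threshold under every alternative run, 16 for the ratio and 11 for Cy5, and 0 of the partner genes did under 16. In Cy5 an unadjusted p under 0.05 was reached by Prlr without wild-type replicate 1 and by Ghr without PRA transgenic replicate 1. Partner genes at an unadjusted p under 0.05 numbered 2 to 9 over these, against 3. Where Cy3 also had to be well above background, on all 7 arrays, 7 of the 9 receptor genes could be tested, Pgr and Prlr not among them. The log2 fold change of Esr1, Nr3c2 and Ghr kept its sign under all 16 alternatives for the ratio. With 1 array left out of the ratio it ran from -0.50 to -0.13 for Esr1 (-0.13 without wild-type replicate 1). It ran from 0.07 to 0.25 for Nr3c2 and from -0.73 to -0.21 for Ghr. In Cy5 alone, Esr1 ran from -0.17 without wild-type replicate 3 to 0.15 without PRA transgenic replicate 2. Nr3c2 ran from -0.10 without wild-type replicate 1 to 0.13 without wild-type replicate 2, so neither kept its sign in Cy5. Ghr ran from -0.77 to -0.29 in Cy5 with 1 array left out. The sign turned for Pgr in Cy5 alone (0.034), for Pgrmc1 with normexp and loess (-0.0084), for Nr3c1 and Pgrmc2 with quantile normalization (0.056 and 0.11), and for Pgrmc2 in Cy5 alone (0.014). With 1 array left out, the log2 fold change in the ratio ran from -1.19 to 0.31 for Pgr (0.31 without wild-type replicate 1). It ran from -0.010 to 0.18 for Esr2, from -0.066 to 0.45 for Prlr and from -0.25 to 0.19 for Nr3c1. For Pgrmc1 it ran from -0.049 to 0.15 and for Pgrmc2 from -0.10 to 0.067. Adjusted p over the alternatives was 0.775 to 0.995 for Pgr and 0.492 or more for the others. The r of Pgr with Esr1 in the ratio, which passed 0.05 only before adjustment over the 2 scales (exact permutation p = 0.0387, adjusted p = 0.0774), missed it under 9 of 13 alternatives. These included normexp and loess (0.676, exact permutation test, p = 0.0994), Cy5 alone (0.251, p = 0.586), the median over probes (0.442, p = 0.326) and deviations from the genotype means (0.797, p = 0.0833, permuted within genotypes). The other 5 each left out 1 array (wild-type replicate 1 or 3, or PRA transgenic replicate 1, 3 or 4), with p from 0.0542 to 0.426. Over all 7 arrays left out in turn r ran from 0.406 to 0.981, the latter without PRA transgenic replicate 2 (exact permutation p = 0.00278). The causes were not tested. Replicate numbers did not pair the arrays: deviations of arrays with the same number correlated at 0.10, -0.30 and 0.04. With the replicate number as a block over replicates 1 to 3, the count was again 0 of 9, the partner genes at an unadjusted p under 0.05 numbered 6, and Pgrmc2 turned to 0.015. That fit also leaves out PRA transgenic replicate 4, and without that array and with no block the number was 6 and the value 0.015 as well. The slide as a block was not run, since there was 1 slide. Dim reference signals limit the ratios of Pgr, Prlr and some probes of Esr1 and Nr3c2, and precision is limited by the number of arrays.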
